A study of Drosophila melanogaster with 6 samples.

Results

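The genes described here divide the *Drosophila* wing disc into its anterior and posterior compartments and carry the Hedgehog signal between them. They were chosen by gene symbol as *en*, *inv*, *hh*, *ci*, *ptc*, *smo*, *fu*, *cos* and *kn*. The platform annotation gave 1 probe set to each of 8 of these 9 genes, out of 10845 named genes on the array, and *fu*, a kinase of the pathway, was not analysed here. The wing imaginal disc is the larval epithelium that forms the adult wing and dorsal thorax. For each sample about 200 discs of E(spl)m4-GFP animals at the late third-instar stage were pooled, dissociated with trypsin and sorted by fluorescence. E(spl)m4 is a gene active in proneural clusters, the cell groups from which bristle precursors arise, and the reporter was carried by the animals of both groups. GFP-positive samples held every cell brighter than cells of w1118 discs, which lack the reporter, and each GFP-negative sample held 100000 cells below that level. There were 3 arrays per group. Whether the discs of each sample were dissected separately is not stated in the labels, so the spread that p-values measure may be technical.

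In the posterior compartment the homeobox proteins Engrailed and Invected specify posterior identity, keep *ci* off and keep *hh* on. The secreted Hedgehog protein crosses into anterior cells, binds the receptor Patched and so frees Smoothened, which acts through the kinesin-like protein Costal and the kinase Fused to stop the trimming of the zinc finger protein Ci. Full-length Ci then switches on anterior genes beside the compartment border, among them *ptc*, *dpp* and *kn*.

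Values are Affymetrix Signals, a linear brightness in arbitrary units, with the array's own detection call of Present, Marginal or Absent. Differences are GFP-positive minus GFP-negative on the log2(Signal + 16) scale, which understates the change of dim genes. Tests are limma fits over the 4943 probe sets with 2 or more Present calls in a group, with Benjamini-Hochberg adjusted p-values and a threshold of 0.05. The arrays called between 4321 and 4541 probe sets Present in the GFP-positive group and between 4382 and 5039 in the GFP-negative group. *E(spl)m4-BFM*, whose reporter defined the sort, had a log2 difference of 3.58 (SE 0.55). The first replicate of each group was hybridised on day 1 and the other 4 arrays on day 2, and the arrays came from 3 manufacturing lots.

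Of the 6 member genes that could be tested, the 3 posterior genes *en*, *inv* and *hh* fell in GFP-positive cells, 0 rose, and *ci*, *smo* and *kn* did not pass the test. Over all tested probe sets 1.74% fell and 1.25% rose, 148 in all, or 257 with the replicate number as a block. The median difference of the 6 was -1.52, which lies between *hh* and *kn*, both tested through the GFP-negative group alone. Over all tested probe sets, whichever group they were tested through, it was -0.01, so these medians are not like for like. *inv*, *hh* and *kn* reached 2 Present calls in the GFP-negative group alone, which favours a lower level in GFP-positive cells among genes tested this way, whereas *en*, *ci* and *smo* were Present on all 6 arrays. In sorted cell pools, fewer cells of a type and less RNA per cell cannot be told apart.

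**Figure D1:**
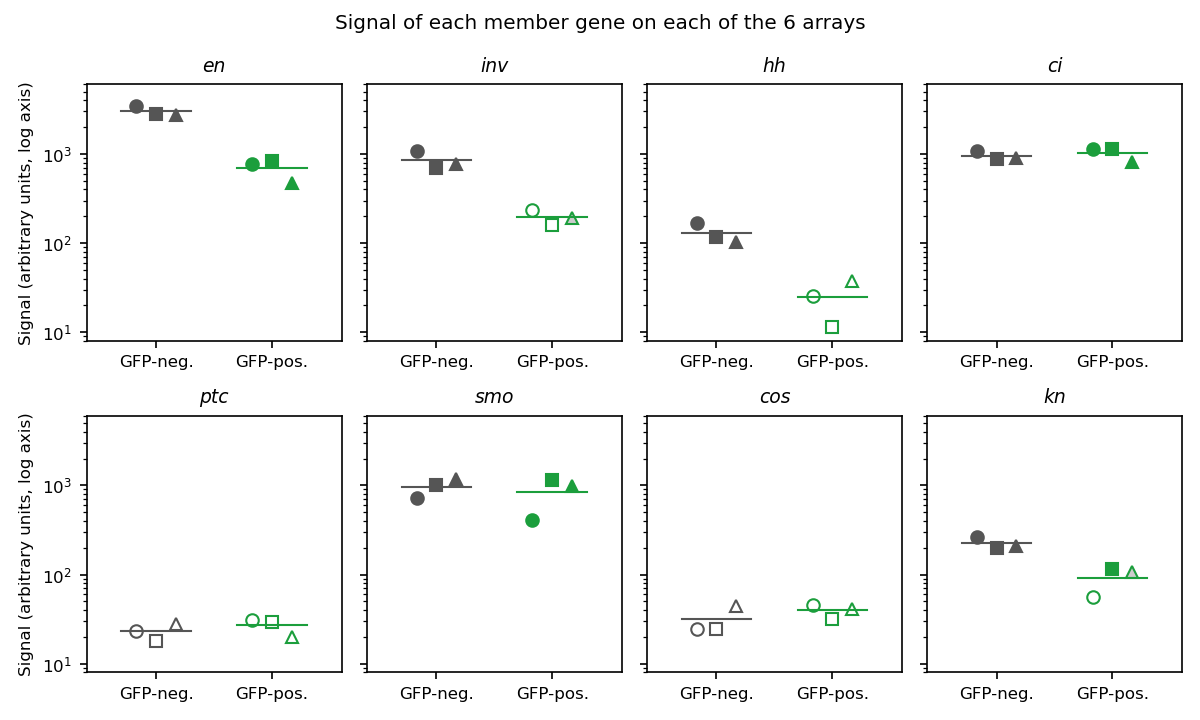
Signal (arbitrary units, log axis) of the 8 member genes in GFP-negative (grey) and GFP-positive (green) samples. Each point is 1 array (circle, square and triangle for replicates 1, 2 and 3), filled where the gene was called Present, pale grey inside where Marginal and open where Absent, and lines are group means. The groups are apart for *en*, *inv*, *hh* and *kn* and overlap for *ci*, *smo*, *ptc* and *cos*. Over all tested probe sets, 11.4% were apart with the GFP-positive group lower.

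The posterior selector gene *en* had Signals of 3444.7, 2835.3 and 2741.9 in GFP-negative replicates 1, 2 and 3. In GFP-positive replicates 1, 2 and 3 its Signals were 768.5, 836.3 and 469. All GFP-positive arrays were therefore below all GFP-negative ones, which held for 11.4% of all tested probe sets. Each GFP-positive array still called the gene Present, with detection p-values from 0.001432 to 0.003815. The group means were 3007 ± 382 (SD, n = 3) for GFP-negative and 691 ± 195 (SD, n = 3) for GFP-positive samples. The log2 difference was -2.13 (SE 0.26, 95% interval -2.70 to -1.56, limma adjusted p = 0.00165), which was the 19th lowest of the 4943.

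*inv*, the neighbour and close paralog of *en*, lies next to it with 0 protein-coding genes between them in the RefSeq table. Its Signals were 1075.9, 689.2 and 769.4 in GFP-negative replicates 1, 2 and 3 and 234.3, 158.5 and 189.2 in the GFP-positive ones. The groups did not overlap. The GFP-positive arrays gave 2 Absent calls and 1 Marginal call, and the GFP-negative arrays called the gene Present. The log2 difference was -2.03 (SE 0.26, 95% interval -2.59 to -1.46, limma adjusted p = 0.00165), the 22nd lowest, which is a fitted fold of 4.07.

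*hh*, which encodes the signal itself, was the dimmest of the 3. Its Signals were 167.5, 116.4 and 103.5 in GFP-negative replicates 1, 2 and 3, where detection p-values lay between 0.000762 and 0.004591. In GFP-positive replicates 1, 2 and 3 they were 25.4, 11.6 and 37.1, with every array calling the gene Absent at detection p-values from 0.181343 to 0.864026. The groups did not overlap. The log2 difference was -1.86 (SE 0.40, 95% interval -2.75 to -0.98, limma adjusted p = 0.0334), or at least 2.80-fold lower with respect to detection. Such a bound sets the brighter group's mean against, on each dim array, its own Signal or the least Present Signal there, whichever was higher, and takes no account of replicate spread. This call was not kept when any 1 of the 6 arrays was left out (adjusted p from 0.0516 to 0.151), with no detection filter (0.092), with lot as a block (0.112) or in the day 2 arrays alone (0.174). Its difference lay between -2.08 and -1.61 when 1 array was left out, and was -2.45 with a pseudocount of 1, -1.12 with one of 64 and -1.17 in the lot of 2 arrays.

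*ci*, the anterior counterpart, encodes the transcription factor at the end of the pathway. Its Signals were 1068.2, 879.7 and 898.3 in GFP-negative replicates 1, 2 and 3, and 1125.9, 1146.1 and 819.2 in the GFP-positive ones. The groups overlapped, and all 6 arrays called the gene Present at a detection p of 0.000491. The log2 difference of 0.11 (SE 0.22, limma adjusted p = 0.88) had a 95% interval from -0.39 to 0.60, which does not reach the estimated fall of *en*, *inv* or *hh*. Its sign was not stable, being -0.0064 under median scaling of the arrays and -0.13 in the lot of 2 arrays.

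Because *ci* and *en* were read on the same arrays, the difference between their changes could be taken within each array. The log2 value of *ci* less that of *en* was higher in GFP-positive than in GFP-negative cells by 2.24, with the GFP-positive arrays 2.09 to 2.43 above the GFP-negative mean and the GFP-negative arrays within -0.03 and 0.05 of it. For *ci* less *inv*, which was Absent or Marginal on GFP-positive arrays, the change was 2.13, with those arrays 1.84 to 2.55 above the GFP-negative mean. For *ci* less *hh* it was 1.97, with GFP-positive arrays 1.22 to 2.64 above. This value rests on GFP-positive Signals of *hh* that were all Absent, and it was 2.56 with a pseudocount of 1, 1.22 with one of 64 and 1.04 in the lot of 2 arrays. In each of these 3 pairs the groups did not overlap and the two-sided exact permutation p was 0.1 (0.1 adjusted over the 3 pairs), the smallest that this test can give for 3 arrays against 3, so it cannot reach the threshold. As *en*, *inv* and *hh* each separated the groups alone and *ci* changed little, this separation restates their falls and is not separate evidence. The difference between *ci* and *en* was 2.22 in the day 1 pair and 2.25 in the day 2 arrays.

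**Figure D2:**
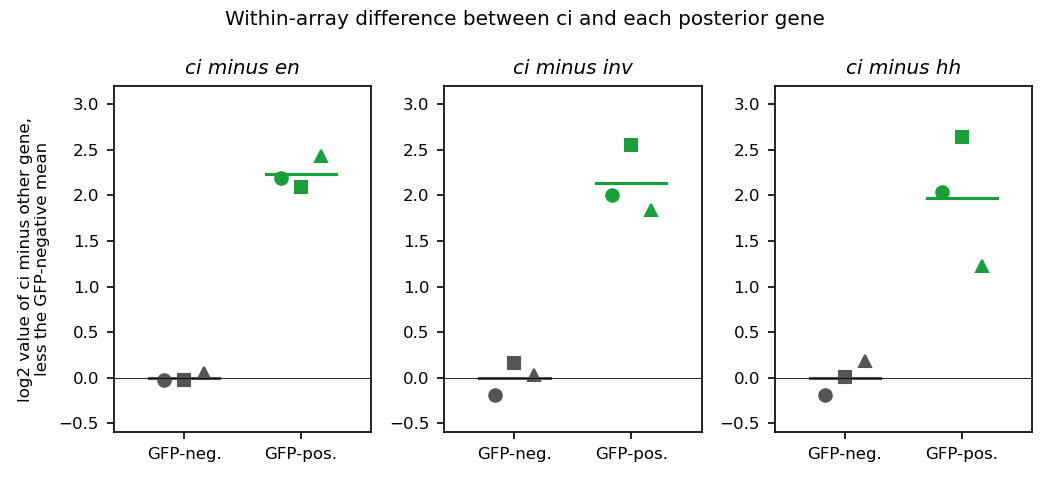
The log2(Signal + 16) value of *ci* less that of *en*, *inv* or *hh* on the same array, with the GFP-negative mean set to 0. Each point is 1 array (circle, square and triangle for replicates 1, 2 and 3), and lines are group means, which differ by 2.24, 2.13 and 1.97. The tightest set is *ci* less *en*, and *hh* varies most among GFP-positive arrays.

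*smo*, the membrane protein that passes the signal inward, had Signals of 727, 1003.8 and 1182.2 in GFP-negative replicates 1, 2 and 3. In GFP-positive replicates 1, 2 and 3 it had 411.6, 1157.1 and 985.2. The groups overlapped, and the lowest value in each group was the array of day 1. The log2 difference was -0.28 (SE 0.37, 95% interval -1.10 to 0.53, limma adjusted p = 0.788). It was -0.80 between the arrays of day 1, -0.03 between those of day 2 and 0.16 without GFP-positive replicate 1. The interval is wide enough to hold a fall of over 2-fold as well as no change.

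*kn*, a transcription factor of the COE family that Hedgehog switches on in anterior cells along the border, patterns the middle of the wing. Its Signals were 264.1, 200.9 and 207.8 in GFP-negative replicates 1, 2 and 3 and 56, 114.6 and 106.6 in GFP-positive ones. The groups did not overlap, as was so for 11.4% of all tested probe sets in this direction. The GFP-negative arrays called *kn* Present, and GFP-positive replicates 1, 2 and 3 called it Absent, Present and Marginal. The log2 difference was -1.19 (SE 0.32, 95% interval -1.90 to -0.48), and the limma adjusted p of 0.0894 missed the threshold. It also missed it in all 18 alternatives that allowed a test, with adjusted p-values from 0.0548 to 0.365. The difference was -1.96 in the day 1 pair and -0.80 in the day 2 arrays, so its size varied more with the day than that of *en* (-2.14 and -2.12) or *inv* (-2.13 and -1.98), without a test of that variation.

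The receptor gene *ptc*, itself a target of the pathway, and *cos*, which encodes the kinesin-like scaffold that holds Ci in the cytoplasm, were Present on none of the 6 arrays and were not tested. *ptc* had Signals between 18 and 27.8 in GFP-negative and between 20.2 and 31.2 in GFP-positive cells, with detection p-values from 0.929927 to 0.995409. *cos* had Signals between 24.7 and 45 in GFP-negative and between 32 and 45.8 in GFP-positive cells, with detection p-values from 0.537511 to 0.849855. Both pairs of ranges overlapped. At this brightness the probe sets give no fold, and an Absent call does not show that the gene was silent.

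**Figure D3:**
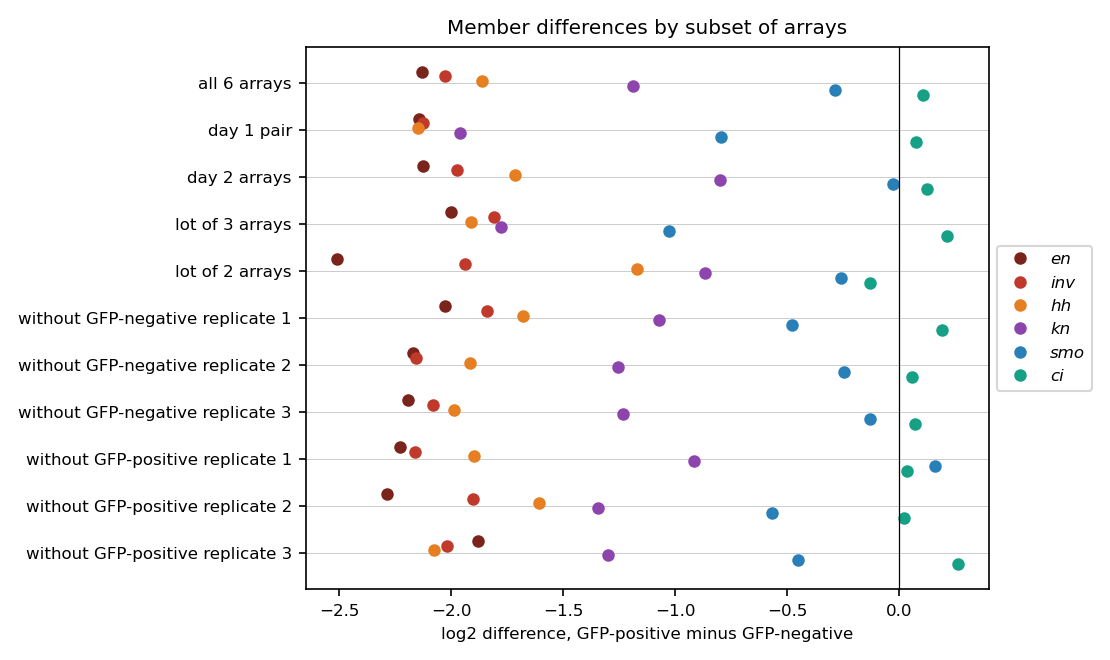
The log2 difference (GFP-positive minus GFP-negative) of the 6 tested member genes over all 6 arrays, within each hybridization day, within each lot that held both groups, and with each array left out. *en*, *inv*, *hh* and *kn* lie below 0 in every subset, *smo* ranges from -1.03 to 0.16, and *ci* from -0.13 to 0.26.

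None of the other listed pathway genes that could be tested passed. Of 10 listed genes that release, spread or help to receive Hedgehog, 8 were on the array and 6 were tested. None rose or fell beyond the threshold (0 of 6 by limma, beside 2.99% of all tested probe sets), 5 had a negative sign, 2 had an unadjusted p under 0.05 (14% of all tested probe sets did), and their median was -0.43. *ihog*, a co-receptor for Hedgehog, had a Signal of 984 ± 95.9 (SD, n = 3) in the GFP-positive and 1700 ± 279 in the GFP-negative samples (log2 -0.77, SE 0.22, adjusted p = 0.11). *ttv*, an enzyme that builds the heparan sulfate chains along which Hedgehog moves, had 436 ± 65.3 and 728 ± 58.7 (log2 -0.73, SE 0.22, adjusted p = 0.133). *rasp*, which attaches a fatty acid to Hedgehog, had a log2 difference of -0.25, and *disp*, which releases Hedgehog from the cell, was Present on no array.

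Inside the receiving cell, 14 of 19 listed genes for transduction and Ci processing were on the array and 10 were tested. None passed (0 of 10 by limma, 0 at an unadjusted p under 0.05), 6 had a negative sign, and differences ran from -0.29 to 0.39 with a median of -0.07. At the ends of this range were *Cul1* (log2 -0.29, SE 0.20), a scaffold of the ubiquitin ligase that starts the trimming of Ci, and *Cul3* (log2 0.39, SE 0.25), a scaffold of the ligase that removes full-length Ci. *Su(fu)*, which restrains Ci, had 1911 ± 81.2 in the GFP-positive and 1757 ± 516 in the GFP-negative samples (log2 0.16, 95% interval -0.38 to 0.69).

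Of 10 listed disc targets of the pathway, 6 were on the array and 3 were tested, and 0 passed (0 at an unadjusted p under 0.05). *dpp*, a secreted BMP-family signal made along the border under Hedgehog control, had 301 ± 145 in the GFP-positive and 247 ± 38.4 in the GFP-negative samples (log2 0.17, SE 0.35). *tkv*, its receptor, had a log2 difference of -0.31 (SE 0.33), and *bs*, which specifies intervein tissue, one of 0.20 (SE 0.22). *ara* and *caup*, homeobox genes of the iroquois complex, were Present on no array.

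The dorsal compartment genes give the other compartment division of the disc for comparison. Of 7 listed, 6 were on the array and 4 were tested, and 0 passed. An unadjusted limma p under 0.05 was reached by 2 of the 4, beside 14% of all tested probe sets. The dorsal selector *ap* had 192.5 ± 20.4 in the GFP-positive and 216 ± 73.6 in the GFP-negative samples (log2 -0.11, 95% interval -0.76 to 0.53). *fng*, a glycosyltransferase that modifies Notch in dorsal cells, had 2203 ± 178 and 3988 ± 619 (log2 -0.84, SE 0.21, adjusted p = 0.067, or 0.0319 with the replicate block). *trn*, a transmembrane protein with leucine-rich repeats, had 1600 ± 622 and 770 ± 54.7 in the other direction (log2 0.98, SE 0.27, adjusted p = 0.1, or 0.0395 with the replicate block). Whether the changes of *en* and *ap* differ was not tested.

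**Figure D4:**
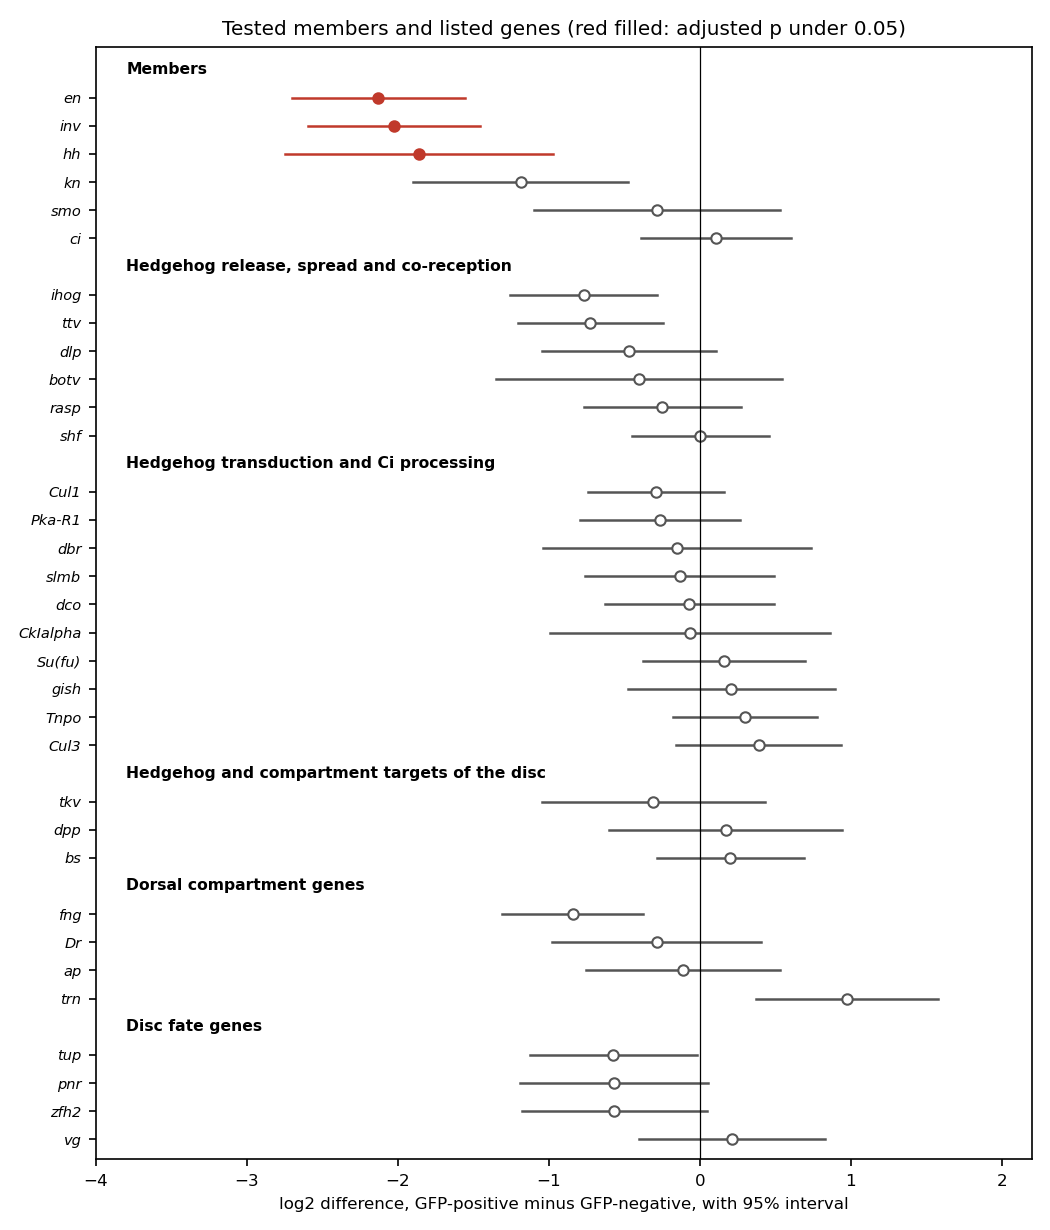
Log2 difference (GFP-positive minus GFP-negative) with its 95% interval for each tested member and each tested gene of the 5 listed groups. Red filled points passed an adjusted p of 0.05. Only *en*, *inv* and *hh* among the genes plotted passed.

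Disc fate genes were used to check the tissue. Of 10 listed, 8 were on the array. *vg*, *pnr*, *tup* and *zfh2*, regulators of the wing, the notum and the hinge, were Present on all 6 arrays, and *nub*, *tsh*, *Dll* and *eyg* on none. None of the 4 tested passed, and 1 had an unadjusted limma p under 0.05, beside 14% of all tested probe sets. Their differences ran from -0.57 (*tup*, SE 0.25) to 0.21 (*vg*, SE 0.28). Another probe set of *zfh2* had -0.13.

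Markers of other cells also differed between the groups. Of 6 listed markers of adult muscle precursors, 5 were on the array and 3 were tested. *Him* fell by a log2 difference of -3.90 (95% interval -4.57 to -3.22, limma adjusted p = 0.000134), or at least 13.2-fold with respect to detection. *htl* fell by -3.19 (95% interval -3.82 to -2.56, limma adjusted p = 0.000271), or at least 8.38-fold with respect to detection. Both were Absent on the GFP-positive arrays and were tested through the GFP-negative group alone. The third, *sns*, had 762 ± 81.3 in the GFP-positive and 532 ± 119 in the GFP-negative samples (log2 0.53, SE 0.24, adjusted p = 0.36). These values come from the brightest of its 6 probe sets, and its other probe sets had no Present call. The summed Signal of the 5 was 896 to 989 in GFP-positive samples, most of it from *sns*, and 2249 to 2608 in GFP-negative samples. The defining markers *twi* and *zfh1* had no Present call and were not tested. Their Signals were 51.3 ± 17.8 and 70.7 ± 36.7 in GFP-positive and 558 ± 41.7 and 312 ± 48.9 in GFP-negative samples. For both genes the groups did not overlap, but how often this held among untested probe sets was not counted. Of 5 markers of precursors and neurons, all were on the array and 2 were tested. *phyl*, which promotes precursor fate, rose by 3.15 (SE 0.29). It was Present on 3 GFP-positive arrays and 1 GFP-negative array, and so was tested through the GFP-positive group alone. *neur* did not pass (log2 1.66, SE 0.40, limma adjusted p = 0.0554), and *sens*, *ase* and *elav* had no Present call. The summed Signal was 1418 to 2046 in GFP-positive samples, most of it from *phyl*, and 287 to 382 in GFP-negative samples. Of the hemocyte, tracheal and glial lists 10 genes were on the array, 1 of each list was tested, and 0 passed. The part of these cells in the change of *en*, *inv* and *hh* was not tested.

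The genes whose pattern over the 6 arrays was most like that of *en* were ranked by Pearson's r on the log2(Signal + 16) scale among 4331 tested probe sets with 1 gene symbol. Because *en* separates the groups, a gene that also separates them ranks high, and 152 of these probe sets had an r of at least 0.9. The 5 highest were *CG9593* (r 0.996), *Ppn* (0.988), *l(1)G0469* (0.988), *hry* (0.987) and *Rrp1* (0.986). *hry*, the hairy repressor that limits where bristles form, had Signals of 4974.9, 3571.5 and 2744.9 in GFP-negative and 1102.8, 1058.4 and 656.8 in GFP-positive replicates 1, 2 and 3 (log2 -1.98, SE 0.29). *Ppn*, a papilin of the extracellular matrix, had 2891.5, 3046.2 and 2197.2 against 964.4, 1061 and 681.7 (log2 -1.58, SE 0.24). *CG9593* had 964.5, 606.7 and 610.8 against 57.6, 47.6 and 18.2, or at least 12.2-fold lower with respect to detection. Its log2 difference was -3.74 (95% interval -4.52 to -2.96). The gene was Absent on the GFP-positive arrays and tested through the GFP-negative group alone. These 3 fell, with limma adjusted p-values of 0.00436, 0.00587 and 0.000337, whereas *l(1)G0469* (log2 -0.61) and *Rrp1* (log2 -0.50), a DNA repair gene, did not pass. As the ranking itself favours genes that separate the groups, these falls are not separate evidence. Among the members, *inv* had an r of 0.955 with *en*, *hh* 0.874, *kn* 0.855, *smo* 0.184 and *ci* -0.04 over the same 6 arrays.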

How the data were processed

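RNA of 3 GFP-positive and 3 GFP-negative samples was read on an Affymetrix Drosophila array with 14010 probe sets (44 controls). The deposited intensity of a probe set is the Signal that Affymetrix's statistical algorithm gives, scaled array by array to a target of 500, per the file headers. Present, Marginal and Absent calls rest on the deposited detection p-values (Alpha1 0.04, Alpha2 0.06, Tau 0.015, per the file headers). RNA labelling is not given in the sources used here. A series table holds the same Signals for all 14010 probe sets, with no centring and medians from 125.35 to 151.6. Scaling factors lay between 4.40 and 6.52, and the number of arrays limits the precision.

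The platform annotation gives 1 symbol for 12443 probe sets, several for 327 (left unnamed) and none for 1196, and symbols were updated through Entrez numbers with a RefSeq table. The brightest probe set stands for a listed gene. Signals were analysed as log2(Signal + 16), filtered on detection, with limma 3.58.1 in R 4.3.3 (two-sided; lmFit with group alone, eBayes with trend; Benjamini-Hochberg over 4943 probe sets). In a test on simulated data the fit missed the smaller of the changes set, so a gene that did not pass may still have changed. Replicate numbers come from the titles. Deviations from the group means correlated between same-numbered samples at 0.402, 0.102 and 0.122. Between differently numbered samples the correlations ran from -0.353 to 0.221, so only the pair of replicates 1 stood above them. A fit with the replicate number as a block was an alternative, as were other scalings, filters and pseudocounts, day and lot, and leaving out each array.

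Genes named are the members, listed genes past the threshold or else the 2 with the smallest p per list, the 5 most like *en*, and a few others (*rasp*, *disp*, *Su(fu)*, *dpp*, *ara*, *caup*, *ap*, *pnr*, *vg*, *hui* and markers) added for their role or position. The members and lists were chosen with earlier results of these data known.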

Additional observations from a re-analysis of the deposited data

How the results depend on the processing

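*en* and *inv* kept their direction and their call in every alternative that allowed a test (19 and 18), with adjusted p-values of at most 0.0136 and 0.0354, and *hh* kept its direction in all 20 and its call in 8 of 18. The number of members that fell was 1 over probe sets Present on all 6 arrays, where *inv* and *hh* were not tested, and 2 whenever 1 array was left out. The replicate block kept the call of each member, gave 257 changed probe sets in place of 148, and moved *fng* and *trn* past the threshold (0.0319 and 0.0395). The count was 229 with the day block, which also moved *fng* (log2 -0.84, adjusted p = 0.0286), 97 with no filter, 50 over probe sets Present on all 6 arrays, 76 in the day 2 arrays and 84 in the lot of 3 arrays, and ran from 69 to 153 with 1 array left out. No test was possible between the 2 arrays of day 1 or of the smaller lot, and the lot of 3 leaves 1 residual degree of freedom. Median scaling moved the median of all tested probe sets to -0.12.

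Signs that turned were all of genes that did not pass, and the cause was not tested. They were *ci* under median scaling (-0.0064) and in the lot of 2 arrays (-0.13), *Su(fu)* in the day 1 pair (-0.33) and in the lot of 3 arrays (-0.010), *dpp* with the lot block (-0.065) and in the lot of 2 arrays (-0.32), *ap* in the day 2 arrays (0.10) and in the lot of 2 arrays (0.18), and *vg* with the lot block (-0.089) and in the lot of 3 arrays (-0.16). With 1 array left out, *smo* ran from -0.57 to 0.16 (without GFP-positive replicate 1), *tkv* from -0.61 to 0.0076 (without GFP-negative replicate 1), *dpp* from -0.16 (without GFP-positive replicate 2) to 0.54, *ap* from -0.27 to 0.13 (without GFP-negative replicate 1), and *vg* from -0.072 (without GFP-positive replicate 2) to 0.40. The changes of *ci* less *en*, *inv* and *hh* kept their sign in all alternatives that alter them, and without 1 array ran from 2.14 to 2.31, from 1.92 to 2.28 and from 1.63 to 2.34.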

Other observations

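The protein-coding genes that flank the posterior genes and *kn* on their chromosomes were looked up in the RefSeq table after the members' values were seen, 3 to each side of the *inv* and *en* pair, of *hh* and of *kn*. Of these 18 genes 13 were on the array and 5 were tested, of which 1 fell, beside 1.74% of all tested probe sets. *hui*, next to *kn*, fell, from 2475 ± 438 (SD, n = 3) in the GFP-negative to 1010 ± 42.6 in the GFP-positive samples (log2 -1.27, SE 0.21, limma adjusted p = 0.00969), but had an adjusted p of 0.0784 without GFP-negative replicate 2 and of 0.0513 without GFP-positive replicate 1. The other 4 did not pass, with differences from -0.76 (*CG31365*, near *hh*) to 0.05 (*Egm*, near *en*).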
